A study of Mus musculus with 2 samples.

Results

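The 10 receptors described here are the scavenger and lectin receptors by which tissue macrophages bind and take up lipoproteins, haemoglobin complexes, sugars, folate and dying cells. They are Marco, Msr1, Cd163, Mrc1, Stab1, Lyve1, Timd4, Folr2, Cd209f and Clec10a, chosen by symbol, and they are 10 of the 24984 gene symbols in the files. All 10 were detected in both libraries, and all 10 reached 100 UMIs (unique molecular identifiers, tags that let copies of the same RNA molecule be counted once) over the macrophages of both libraries together.

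Live cells of dissociated hind limb muscle were profiled by droplet-based single-cell RNA-seq, and 2 libraries were compared. All mice were mdx, which lack dystrophin, and all carried Pax7CreERT2 with the R26YFP reporter and received tamoxifen. Mice of the Ctrl library were Yy1+/+, and mice of the dKO library were Yy1 f/f, so that Yy1, which encodes a zinc finger protein that binds DNA, was deleted in Pax7-expressing muscle stem cells (MuSCs). Each library pooled several mice, so there is 1 library per group, no difference below has a replicate check, no test was run, and genotype cannot be told apart from library. The mice's age is not given in the labels.

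Tissue macrophages carry these receptors in different combinations. Cells that settle in a tissue and renew there are known for Lyve1, Timd4 and Folr2, and macrophages exposed to glucocorticoids or IL-10 for Cd163. Mrc1 and Clec10a are widely used as markers of macrophages exposed to IL-4, and Marco and Msr1, the class A scavenger receptors, are known from macrophages that meet bacteria and modified lipoproteins. In dystrophic muscle, fibres break down and regenerate continuously, and macrophages clear the debris.

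The Ctrl library held 4527 cells and 45556596 UMIs and the dKO library 3483 cells and 33815155 UMIs. Of these, 4335 and 3329 had at least 500 genes, and 4010 and 3079 remained after removal of likely doublets. The 2 libraries shared 7 cell barcodes. Monocyte and macrophage-like (MO/MP-like) cells, cycling ones included, numbered 1527 in Ctrl (38.1% of kept cells) and 1167 in dKO (37.9%), with a median of 8141 and 6941 UMIs per cell. Of their defining markers, C1qa was at 2474 and 2924 CPM (a gene's UMIs scaled to a total of 1000000 UMIs over the cells summed) and Csf1r at 486 and 435 CPM. In MuSC-like cells Yy1 had 369 UMIs in 117 Ctrl cells and 3 UMIs, all in 1 cell, in 30 dKO cells, a ratio of 0.0304 (95% counting interval 0.00623 to 0.0894). In MO/MP-like cells, which the Pax7-driven Cre does not target, Yy1 was at 135 and 150 CPM.

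The promoter windows of 7 of the 10 receptors were found in RefSeq's table (GRCm38.p6), each running from 250 bases before to 50 after the transcription start, and 5 are shown: Stab1, whose level differed across most subsets, Cd163 and Cd209f, whose UMIs lay mainly in 1 subset, and Mrc1 and Folr2, which had UMIs in all of them. Msr1, Lyve1 and Clec10a had no entry. Capitals mark the letters AGGAAGT (the ETS motif of the PU.1 type, PU.1 being the factor that macrophage genes share) or TGCTGAC (the half-site of MAF factors) on either strand.
Stab1 (chr14:31168592-31168891, minus strand): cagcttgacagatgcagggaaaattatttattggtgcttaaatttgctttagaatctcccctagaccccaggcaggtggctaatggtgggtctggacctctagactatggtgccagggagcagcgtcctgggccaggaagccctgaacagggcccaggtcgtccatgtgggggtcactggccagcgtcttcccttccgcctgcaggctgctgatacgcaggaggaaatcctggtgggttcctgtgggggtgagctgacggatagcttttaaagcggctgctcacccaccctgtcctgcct
Cd163 (chr6:124304401-124304700, plus strand): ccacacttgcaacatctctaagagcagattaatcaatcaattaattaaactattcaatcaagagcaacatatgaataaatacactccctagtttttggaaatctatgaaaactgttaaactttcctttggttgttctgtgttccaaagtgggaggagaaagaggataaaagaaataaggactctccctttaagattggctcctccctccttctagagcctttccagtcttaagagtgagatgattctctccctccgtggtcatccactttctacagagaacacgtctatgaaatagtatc
Cd209f (chr8:4105715-4106014, minus strand): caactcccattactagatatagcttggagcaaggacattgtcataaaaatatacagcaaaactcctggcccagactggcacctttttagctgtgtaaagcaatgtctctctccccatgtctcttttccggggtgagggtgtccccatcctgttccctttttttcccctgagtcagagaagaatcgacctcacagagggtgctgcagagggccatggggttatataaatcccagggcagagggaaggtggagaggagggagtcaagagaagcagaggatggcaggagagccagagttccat
Mrc1 (chr2:14229164-14229463, plus strand): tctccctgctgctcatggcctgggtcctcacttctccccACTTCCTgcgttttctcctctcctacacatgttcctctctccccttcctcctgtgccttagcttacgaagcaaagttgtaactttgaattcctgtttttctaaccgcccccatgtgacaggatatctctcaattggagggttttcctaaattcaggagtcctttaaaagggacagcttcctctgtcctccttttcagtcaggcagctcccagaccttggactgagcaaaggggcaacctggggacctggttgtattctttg
Folr2 (chr7:101857141-101857440, minus strand): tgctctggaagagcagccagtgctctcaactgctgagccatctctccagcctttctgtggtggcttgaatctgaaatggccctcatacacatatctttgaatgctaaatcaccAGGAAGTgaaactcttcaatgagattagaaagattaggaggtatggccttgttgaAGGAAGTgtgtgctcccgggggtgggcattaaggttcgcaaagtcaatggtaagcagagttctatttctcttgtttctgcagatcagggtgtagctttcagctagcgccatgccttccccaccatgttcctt
Folr2 held the ETS letters 137 and 82 bases before its start, Mrc1 held them on the opposite strand 211 bases before its start, and Timd4 held the MAF half-site on the opposite strand 45 bases before its start. A second Folr2 window and those of Marco, Stab1, Cd163 and Cd209f held neither. Of 32851 windows of this length, 9.35% held the ETS letters and 4.67% the MAF half-site. Gene positions given below are also on GRCm38, and all 10 genes are annotated as protein-coding.

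MO/MP-like cells fell into 8 sub-clusters when the receptors and the other listed genes were kept out of the clustering. The Fcna+ resident macrophage-like subset, named from Fcna, Cbr2, Gas6, Vsig4, Pf4 and Selenop, held 263 Ctrl cells (17.2% of MO/MP-like cells) and 215 dKO cells (18.4%). The others were Ly6c2+ Chil3+ monocyte-like cells, Spp1+ Gpnmb+ macrophage-like cells, 2 C1q-high Fcgr4+ clusters (1 led by Calhm6 and the interferon-induced Ifit3 and Ifit2, 1 led by Arl5c), cycling cells, which the neutrophil genes S100a9 and S100a8 led together with cell cycle genes, and 2 unnamed clusters led by Dcstamp and by Osm.

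The resident subset was shallow and mixed. Its cells had a median of 2734 UMIs in Ctrl and 3806 in dKO. At a finer clustering (resolution 0.8 in place of 0.4) 91 of its 263 Ctrl cells (34.6%) and 46 of its 215 dKO cells (21.4%) fell into a cluster led by the fibroblast genes Dcn, Col3a1 and Sparc. Those 91 and 46 cells had medians of 1634 and 1656.5 UMIs, with Dcn at 1190 CPM in Ctrl and 95.7 CPM in dKO, and 2 Lyve1 UMIs in Ctrl and 0 in dKO. Ratios of the receptors in the resident subset are therefore given with and without them. Without them, 172 Ctrl and 169 dKO cells remained, and Dcn was at 91.7 and 58.1 CPM.

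The receptors differed in where their UMIs lay. Cd209f and Cd163 were largely held by the resident subset: 86.3% of Cd209f UMIs in Ctrl and 95.3% in dKO, and 74.0% and 71.0% of Cd163 UMIs, although that subset held only 7.12% and 10.9% of the UMIs of MO/MP-like cells. Msr1, Mrc1, Stab1, Folr2 and Clec10a had UMIs in all 8 sub-clusters of both libraries. Lyve1 and Timd4 had a large part of their UMIs outside macrophages, Lyve1 in lymphatic endothelial-like cells (58.7% in Ctrl, 47.9% in dKO) and Timd4 in dendritic cell-like cells (37.6% and 53.9%). Marco, with 177 and 33 UMIs in all, was held by few cells.

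**Figure D1:**
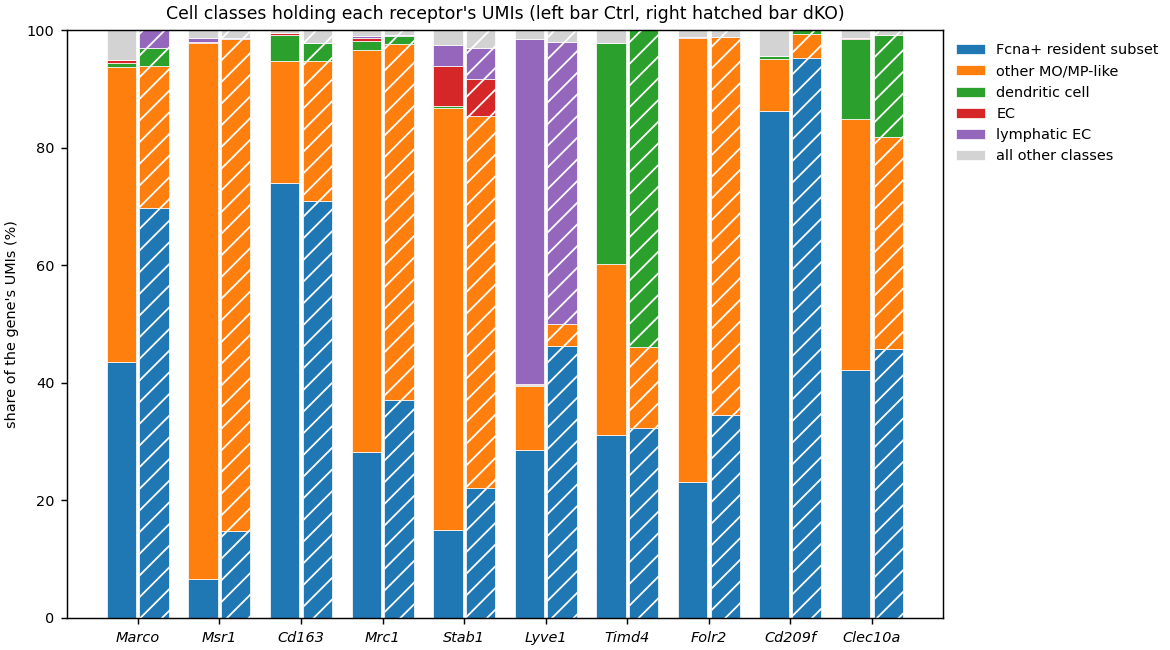
Share of each receptor's UMIs (in percent of its UMIs in all kept cells) by cell class, with Ctrl as the left and dKO as the right, hatched bar. Cd209f and Cd163 are mostly blue, the resident subset (86.3% and 74.0% in Ctrl), while purple, the lymphatic endothelial-like cells, holds 58.7% of Lyve1 in Ctrl, and green, the dendritic cell-like cells, 37.6% of Timd4.

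Summed over the 10 receptors, MO/MP-like cells held 1085 CPM in Ctrl and 1079 CPM in dKO, a ratio of 0.995 (0.970 to 1.02), but single receptors moved apart. By a rule of 1.5-fold and 100 UMIs or more, Lyve1 was higher and Marco and Stab1 were lower in dKO, 1 and 2 of 10. Of 9111 genes measured in these cells, 4.47% were higher and 4.45% lower by that rule. By a 2-fold rule Lyve1 was higher and Marco lower, beside 1.3% of all genes higher and 1.5% lower. Lyve1 was under 2-fold, at a log2 ratio of 0.74, with dKO subsets given their Ctrl share of UMIs. The median log2 ratio (dKO over Ctrl) was 0.29 for the 10 receptors and −0.02 for all genes. With dKO subsets given their Ctrl share of UMIs, the median for the 10 was −0.06. In the resident subset 9 of the 10 had 100 UMIs, and Lyve1 was higher and Stab1 and Marco lower, beside 6.1% of 2919 genes higher and 4.18% lower. There the median log2 ratio was −0.11 for the 9 receptors (−0.33 without the Dcn-led cells) and −0.0061 for all genes. Marco reached exactly 100 UMIs there, 74 of them in 1 Ctrl cell. It was just under that without the Dcn-led cells (76 and 23 UMIs). Without them Lyve1 and Stab1 were still past 1.5-fold, and Cd163 was then lower by that rule too (log2 ratio −0.62). The share of all genes past 1.5-fold was not computed without the Dcn-led cells. The intervals given here, at 95%, cover counting error only and not the spread between mice or between cells. They treat each UMI as independent, so they are too narrow where few cells hold most UMIs. In these sums, fewer cells with a receptor and less RNA per cell are told apart only by the shares of cells given beside them.

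**Figure D2:**
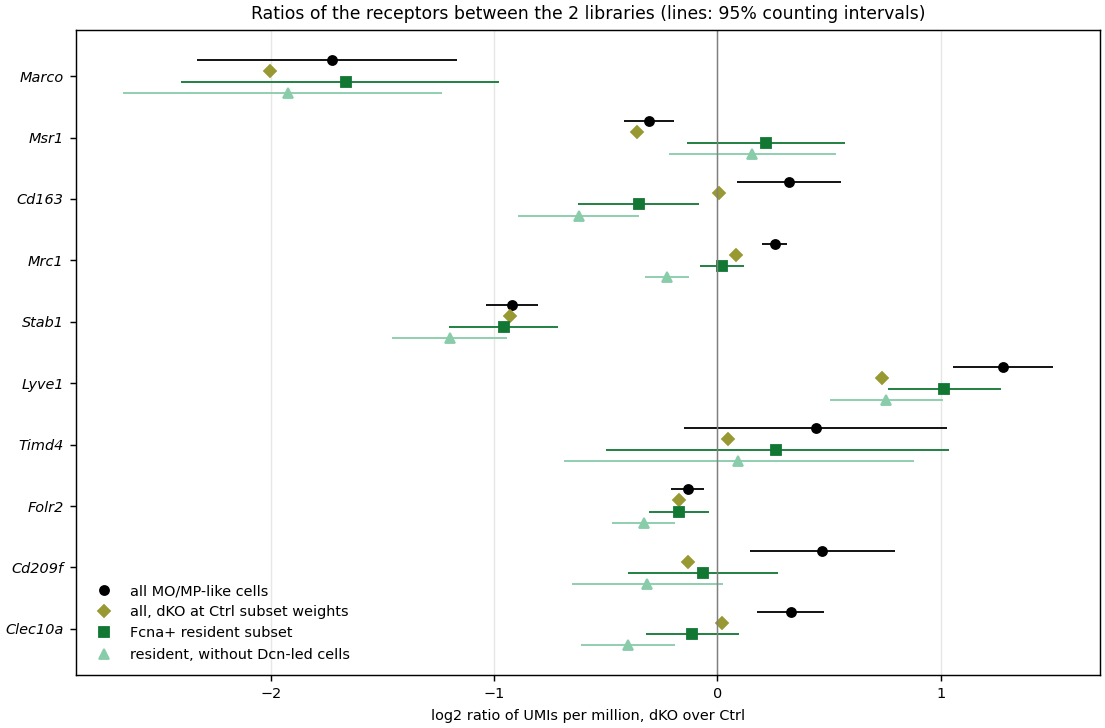
log2 ratio of CPM, dKO over Ctrl, for each receptor in all MO/MP-like cells (circles), in the same cells with dKO subsets given their Ctrl share of UMIs (diamonds, no interval), in the Fcna+ resident subset (squares) and in it without the shallow Dcn-led cells (triangles), with 95% counting intervals as lines. Stab1 and Marco lie left of 0 and Lyve1 right of 0 in all 4, whereas Cd163 and Clec10a lie at 0.32 and 0.33 as summed but at 0.01 and 0.02 with Ctrl weights, and Cd209f changes from 0.47 to −0.13.

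Stab1 (stabilin 1, chr14:31139013-31168641, minus strand), an endocytic receptor for acetylated lipoproteins and the matrix protein SPARC, was lower across most macrophages in dKO. In MO/MP-like cells it had 2451 UMIs in Ctrl and 800 in dKO, or 164 CPM (158 to 171) and 86.6 CPM (80.7 to 92.9), a log2 ratio of −0.92 (−1.04 to −0.81). The cell with most Stab1 UMIs held 1.02% (Ctrl) or 1.5% (dKO) of the total, so no single cell set these sums. With every cell thinned to 2000 UMIs, 23.7% of 1377 Ctrl cells and 15.7% of 1052 dKO cells had a Stab1 UMI, so that fewer cells showed it at equal depth (48.7% and 34.8% without thinning). In fibro-adipogenic progenitor-like (FAP-like) cells, which should lack the gene, the thinned share was 0.581% and 0.0912%, at medians of 11762 and 11872 UMIs before thinning.

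Stab1 was lower in dKO in 7 of the 8 sub-clusters. In the resident subset, the highest among macrophages, it was at 399 CPM in Ctrl and 206 CPM in dKO, a log2 ratio of −0.96 (−1.20 to −0.71), and −1.20 (−1.46 to −0.94) without the Dcn-led cells. The Calhm6-led and Arl5c-led C1q-high clusters went from 252 to 114 CPM and from 146 to 67.1 CPM. Monocyte-like cells went from 99.8 to 50.04 CPM, cycling cells from 94.4 to 50.5 CPM and Spp1+ Gpnmb+ cells from 161 to 111 CPM. In the Dcstamp-led cluster the 45 Ctrl UMIs, 37.8% of them in 1 cell, stood against 7 in dKO, while in the Osm-led cluster 15 UMIs stood against 19, a log2 ratio of 0.12 (−0.94 to 1.20).

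Outside macrophages, Stab1 was highest in endothelial cells, for which it is also known. Endothelial-like cells were at 73.1 CPM in Ctrl and 66.5 CPM in dKO, a log2 ratio of −0.14 (−0.58 to 0.29), and lymphatic endothelial-like cells at 968 and 782 CPM (18 and 13 cells), a log2 ratio of −0.31 (−0.83 to 0.19). Both intervals include no difference. Within Ctrl the order of levels was lymphatic endothelial, resident, Calhm6-led and Spp1+ Gpnmb+, whose intervals did not overlap (161 CPM, 148 to 175, for the last). The interval of the Arl5c-led cluster (146 CPM, 130 to 163) overlapped that of the Spp1+ Gpnmb+ cells. Its relative Stab2 had 17 and 11 UMIs in MO/MP-like cells.

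Lyve1 (chr7:110850607-110863239, minus strand), a receptor for hyaluronan that marks lymphatic vessels and a subset of vessel-associated macrophages, was higher in dKO. Its 276 UMIs in Ctrl and 414 in dKO MO/MP-like cells were 18.5 CPM (16.4 to 20.8) and 44.8 CPM (40.6 to 49.4), a log2 ratio of 1.28 (1.06 to 1.5). With dKO subsets given their Ctrl share of UMIs, the log2 ratio was 0.74. At 2000 UMIs per cell, 3.12% of Ctrl and 5.23% of dKO cells had a Lyve1 UMI (6.02% and 7.63% without thinning), against 0.0968% and 0.0912% of FAP-like cells.

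The difference lay in the resident subset, which went from 188 CPM (163 to 216) to 380 CPM (343 to 420), a log2 ratio of 1.02 (0.77 to 1.27), and of 0.75 (0.50 to 1.01) without the Dcn-led cells. In the remaining MO/MP-like cells 76 UMIs in Ctrl and 31 in dKO gave a log2 ratio of −0.54 (−1.19 to 0.08). Among resident cells the top cell had 10.5% (Ctrl) or 9.40% (dKO) of the UMIs, and 21.4% and 30.4% of thinned resident cells had a UMI (25.5% and 35.3% without thinning). At the finer clustering the resident cells included a small cluster led by Cd209g, C6 and Cd209f and a larger one led by Hpgd, Cd163 and Tslp. Over the whole of each cluster, Lyve1 was at 382 CPM in 36 Ctrl cells and 736 CPM in 62 dKO cells of the first, and at 228 CPM in 135 and 296 CPM in 104 cells of the second. The first made up 13.7% of the resident subset in Ctrl and 28.8% in dKO.

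Other subsets held little Lyve1, and in 2 of them it was lower in dKO with an interval that left out equal levels. Monocyte-like cells had 27 UMIs in 7 Ctrl cells and 3 UMIs in 1 dKO cell, a ratio of 0.138 (0.0268 to 0.449), and the Calhm6-led cluster 26 UMIs in Ctrl, 65.4% of them in 1 cell, and 5 in dKO. Lymphatic endothelial-like cells, the class with the highest level, were at 3899 CPM in 18 Ctrl cells and 6190 CPM in 13 dKO cells, a log2 ratio of 0.67 (0.46 to 0.87), with 15.6% and 25.0% of the UMIs in the top cell.

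Marco (chr1:120474538-120505024, minus strand), a class A scavenger receptor for bacteria and particles, had the ratio farthest from 1 of the 10 in MO/MP-like cells and the fewest cells. There were 166 UMIs in 14 Ctrl cells and 31 UMIs in 5 dKO cells of the MO/MP-like class, or 11.1 and 3.36 CPM, a log2 ratio of −1.73 (−2.33 to −1.17). One cell held 44.6% of the Ctrl UMIs and 1 cell 58.1% of the dKO UMIs. In the resident subset 77 UMIs lay in 4 Ctrl cells, 96.1% of them in 1 cell, and 23 UMIs in 3 dKO cells. Without the top cell of each library the resident log2 ratio changed from −1.66 (−1.92 without the Dcn-led cells) to 0.83, while that over all MO/MP-like cells was −2.13. The resident value of 0.83 rests on the few UMIs left in each library. The Ctrl monocyte-like cells held 84 UMIs in 5 cells, and those of dKO 4 UMIs in 1 cell. At 2000 UMIs per cell, 0.363% of Ctrl and 0.190% of dKO MO/MP-like cells had a UMI, so the difference rests on a handful of cells.

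**Figure D3:**
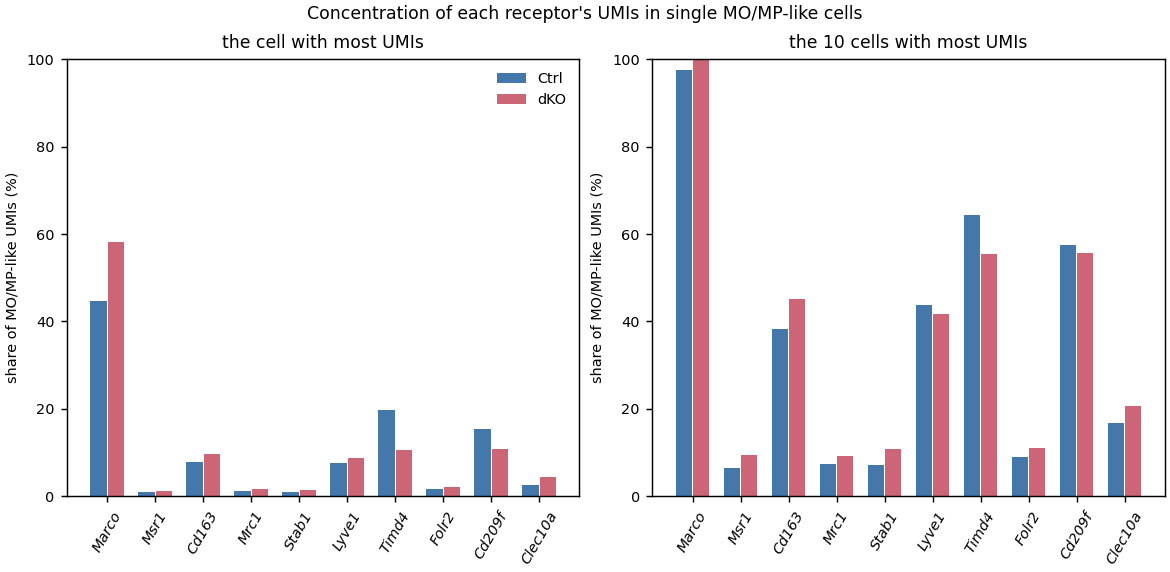
Share (in percent) of each receptor's UMIs in MO/MP-like cells that lay in the cell with most of them (left) and in the 10 cells with most (right), for Ctrl (blue) and dKO (red). The top Marco cell holds 44.6% and 58.1%, whereas the top Stab1, Msr1 and Mrc1 cells each hold under 2%.

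Msr1 (chr8:39581685-39642673, minus strand), the other class A scavenger receptor, takes up modified lipoproteins and was lower in dKO by less than 1.5-fold. Its 1892 UMIs in Ctrl and 946 in dKO MO/MP-like cells were 127 CPM (121 to 133) and 102 CPM (96.0 to 109), a log2 ratio of −0.31 (−0.42 to −0.19). Thinned shares of cells with a UMI were 22.7% and 17.0% (49.5% and 39.8% without thinning), against 0.194% and 0.182% in FAP-like cells. Msr1 was highest in monocyte-like cells, at 263 CPM in Ctrl and 208 CPM in dKO, and Spp1+ Gpnmb+ cells were at 183 and 129 CPM, next in order in Ctrl but below the resident subset in dKO. It was also lower in the Calhm6-led cluster (87.5 and 59.8 CPM) and the Arl5c-led cluster (102 and 65.8 CPM). The resident subset went from 121 to 141 CPM and the Dcstamp-led cluster from 42.5 to 56.2 CPM, with intervals of the log2 ratio (−0.14 to 0.57 and −0.09 to 0.90) that include no difference. The resident log2 ratio was 0.22, and 0.16 without the Dcn-led cells, while the thinned share of resident cells with a UMI was 22.0% in Ctrl and 16.5% in dKO.

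Folr2 (folate receptor beta, chr7:101839988-101857194, minus strand) binds folate and marks resident macrophages in several tissues. Over MO/MP-like cells 4163 UMIs in Ctrl and 2346 in dKO gave 279 and 254 CPM, a log2 ratio of −0.13 (−0.21 to −0.06). It was highest in the resident subset, at 915 CPM (859 to 975) for Ctrl and 812 CPM (758 to 870) for dKO, a log2 ratio of −0.17 (−0.31 to −0.04), and of −0.33 (−0.47 to −0.19) without the Dcn-led cells. A Folr2 UMI was seen in 66.7% and 67.1% of thinned resident cells (62.7% and 70.2% without thinning). Spp1+ Gpnmb+ cells followed at 412 and 350 CPM, and monocyte-like cells were low at 64.2 and 63.1 CPM. The ratio was not alike in all subsets, as the Arl5c-led cluster went from 178 to 223 CPM and the Dcstamp-led cluster from 91.9 to 43.1 CPM.

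Mrc1 (the mannose receptor, chr2:14229392-14332057, plus strand) is an endocytic C-type lectin that binds mannose and fucose. MO/MP-like cells had 5848 UMIs in Ctrl and 4317 in dKO, or 392 CPM (382 to 402) and 468 CPM (454 to 482), a log2 ratio of 0.26 (0.20 to 0.31). The resident subset was at 1609 CPM in Ctrl and 1631 CPM in dKO, a log2 ratio of 0.02 (−0.08 to 0.12), and of −0.23 (−0.33 to −0.13) without the Dcn-led cells. With dKO subsets at their Ctrl share of UMIs the log2 ratio over MO/MP-like cells was 0.08, a smaller difference than in the sum, where the resident subset held 7.12% of the UMIs in Ctrl and 10.9% in dKO. Monocyte-like cells were lower, at 496 and 384 CPM, a log2 ratio of −0.37 (−0.53 to −0.21). Cycling cells were higher, at 141 and 314 CPM, but 1 dKO cell held 35.8% of those UMIs.

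Clec10a (chr11:70156197-70170834, plus strand), a C-type lectin for galactose and N-acetylgalactosamine, was also higher in the sum but not within the resident subset. MO/MP-like cells were at 55.3 CPM in Ctrl and 69.4 CPM in dKO, a log2 ratio of 0.33 (0.18 to 0.48), and 0.02 at Ctrl shares of the subsets. The resident subset was highest, at 386 and 357 CPM, a log2 ratio of −0.11 (−0.32 to 0.09). It was −0.40 (−0.61 to −0.19) without the Dcn-led cells and −0.72 without integration. At the finer clustering, the Cd209g-led cluster went from 1164 CPM (975 to 1379) to 597 CPM (509 to 696). The Hpgd-led cluster went from 397 CPM (351 to 447) to 305 CPM (262 to 352). Dendritic cell-like cells followed at 119 and 147 CPM. Its close paralogue Mgl2, which can share reads with it, had a log2 ratio of 0.28 in MO/MP-like cells, at 45.1 and 54.7 CPM.

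Cd163 (chr6:124304656-124330527, plus strand), which takes up haemoglobin bound to haptoglobin, was at 23.2 CPM in Ctrl and 29.0 CPM in dKO over MO/MP-like cells (347 and 268 UMIs), a log2 ratio of 0.32 (0.09 to 0.56), which was −0.38 with the mean of each cell's own CPM. Within the resident subset it was lower in dKO, at 255 and 200 CPM, a log2 ratio of −0.35 (−0.62 to −0.08), and of −0.62 (−0.89 to −0.35) without the Dcn-led cells and −1.12 without integration of the libraries. At Ctrl shares of the subsets the log2 ratio was 0.01. Cycling cells added 3 UMIs in Ctrl and 21 in dKO, 71.4% of the latter in 1 cell.

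Cd209f (chr8:4102787-4105835, minus strand), a C-type lectin of the DC-SIGN family, had 174 and 149 UMIs in MO/MP-like cells, in 44 and 40 cells. The sum went from 11.6 to 16.1 CPM, a log2 ratio of 0.47 (0.14 to 0.79), and −0.13 at Ctrl shares of the subsets. In the resident subset as a whole 149 and 142 CPM differed by less than counting error, with a log2 ratio of −0.07 (−0.40 to 0.27). It was −0.31 (−0.65 to 0.02) without the Dcn-led cells and −0.75 without integration. Both finer resident clusters were lower in dKO. The Cd209g-led one went from 521 CPM (398 to 671) to 320 CPM (257 to 395). The Hpgd-led one went from 141 to 90.1 CPM, with overlapping intervals. The Cd209g-led cluster, the richer in Cd209f, held 13.7% of Ctrl resident cells and 28.8% of dKO ones, so the sum weights it differently. Reads of Cd209f may be shared with its relatives. Of these, Cd209d was lower in dKO MO/MP-like cells (9.57 and 5.52 CPM, log2 ratio −0.79). Cd209g was higher (4.89 and 7.58 CPM, log2 ratio 0.63), while Cd209a was at 6.76 and 7.15 CPM.

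Timd4 (chr11:46810800-46844332, plus strand), a phosphatidylserine receptor for dying cells, was rare. MO/MP-like cells had 56 UMIs in 28 Ctrl cells and 47 UMIs in 28 dKO cells, or 3.75 and 5.09 CPM, a log2 ratio of 0.44 (−0.15 to 1.03). The resident subset was at 27.3 and 32.8 CPM, a log2 ratio of 0.26 (−0.50 to 1.04), and of 0.09 without the Dcn-led cells. Dendritic cell-like cells were at 31.5 CPM (21.9 to 43.8) and 59.3 CPM (44.7 to 77.2), and these intervals overlapped with those of the resident subset in both libraries. A difference between the libraries in macrophages was not detectable at this depth.

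**Figure D4:**
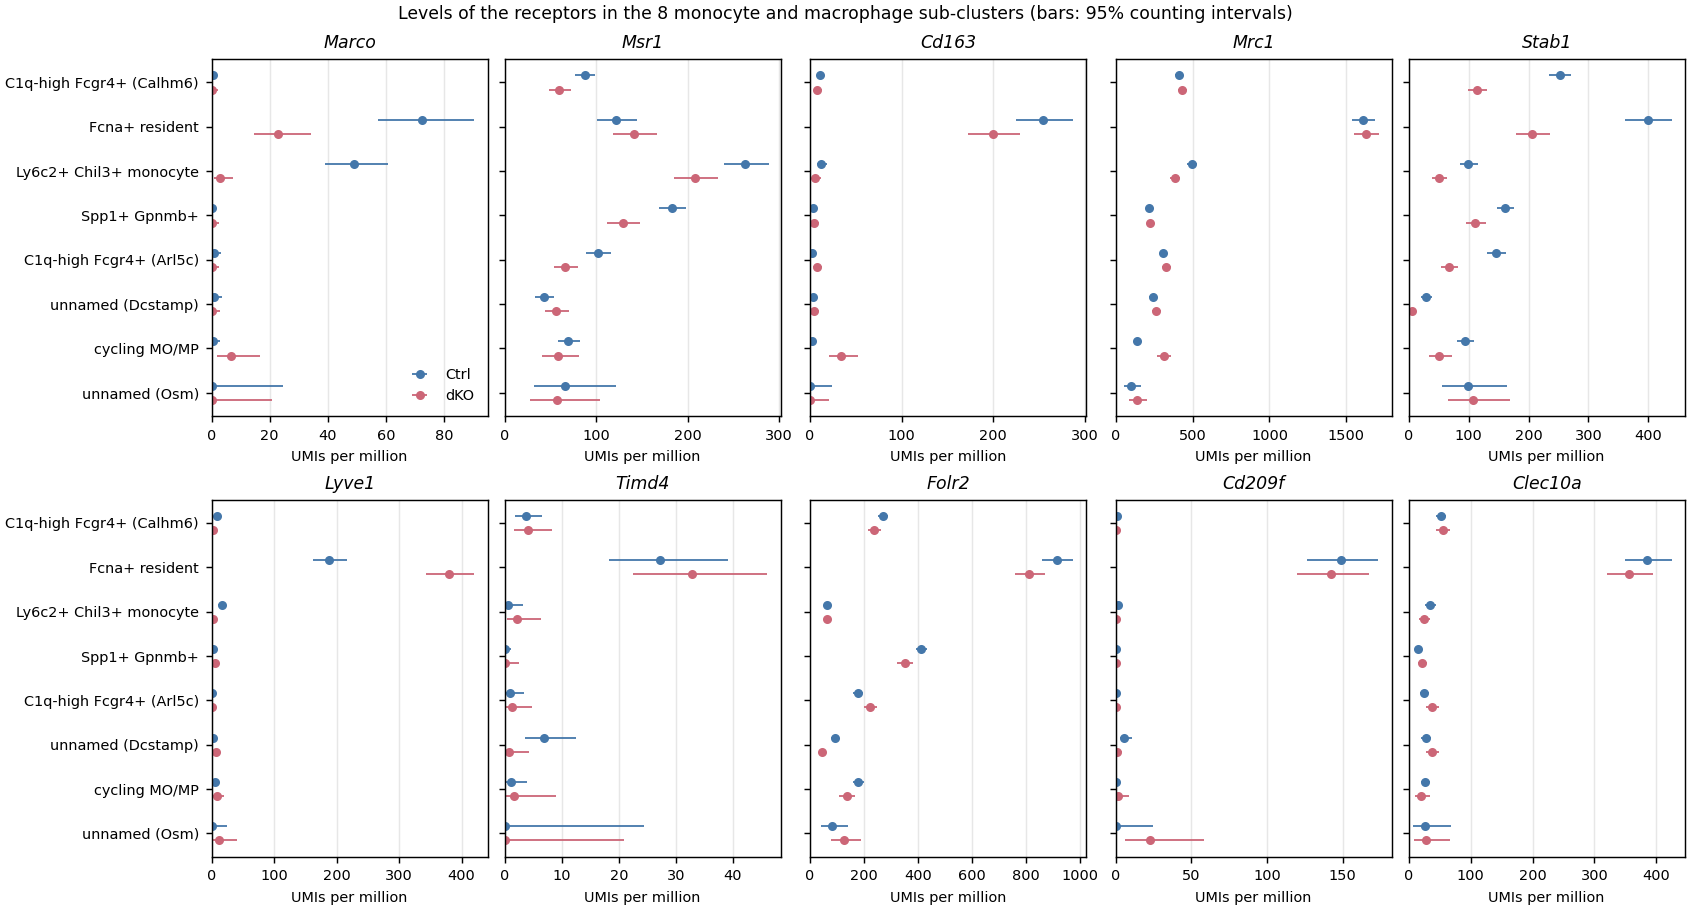
CPM of each receptor in the 8 MO/MP-like sub-clusters, with Ctrl in blue, dKO in red and 95% counting intervals as bars, on an axis of its own for each gene. Stab1 is lower in dKO in all sub-clusters but the Osm-led one, Lyve1 separates in the resident subset (188 and 380 CPM), and Msr1 is highest in monocyte-like cells (263 and 208 CPM).

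The receptors were also seen together in single cells. At 2000 UMIs per cell, resident cells showed a mean of 3.17 of the 10 receptors in Ctrl (SD 1.76, 168 cells) and 3.09 in dKO (SD 1.65, 158 cells), and cells of the other sub-clusters means of 0.676 to 1.36. Among Ctrl MO/MP-like cells with a Cd163 UMI (55 cells), 89.1% had Mrc1, 80.0% Folr2 and 45.5% Clec10a, against 39.9%, 27.5% and 9.15% of the 1322 cells without one. In dKO (46 cells) these shares were 91.3%, 82.6% and 54.3%, against 41.4%, 25.6% and 9.44%. Of the cells with Cd163, 40 of 55 in Ctrl and 36 of 46 in dKO were resident cells, so this contrast is largely one between subsets. Among resident cells alone, Ctrl cells with and without Cd163 had Mrc1 in 92.5% and 80.5%, Folr2 in 92.5% and 58.6% and Clec10a in 62.5% and 32.0%. In dKO these were 97.2% and 79.5% for Mrc1, 91.7% and 59.8% for Folr2 and 66.7% and 36.1% for Clec10a. Thinning left out 95 Ctrl and 57 dKO resident cells. Dcn-led cells were not set apart here, although in Ctrl they had Cd163 at 15.0 CPM, against 335 CPM in the other resident cells. This contrast may therefore also mix kinds of cells. For Msr1 the shares with and without Cd163 were 23.6% (95% interval 13.2% to 37.0%) and 22.6% (20.4% to 25.0%) in Ctrl, and 10.9% (3.62% to 23.6%) and 17.3% (15.0% to 19.8%) in dKO, with overlapping intervals in both libraries.

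Likeness was measured as Pearson's r of log2(CPM + 1) over 40 points (cell classes and sub-clusters of each library, which share library and depth) among 12557 genes, as a description. Cd209f was most like Cd209g (0.966), Clec10a like Ticam2 (0.947), Folr2 like Pf4 (0.923), Msr1 like Mpp1 (0.920), Mrc1 like Vamp8 (0.919) and Cd163 like Fcna (0.876). Stab1 was most like Rab5c (0.838), Timd4 like Cd209d (0.830), Lyve1 like the lymphatic gene Mmrn1 (0.750), and Marco like Cd163 (0.637). The next in order were Cd209b and Fcna for Cd209f, Ptpro and Tbxas1 for Clec10a, Trem2 and Ctsb for Folr2, Mrc1 and Lgmn for Msr1, and Msr1 and Gm21188 for Mrc1. For the others they were Clec10a and Nectin4 (Cd163), Dram2 and Tnfrsf11a (Stab1), Cd163 and Cd209a (Timd4), Arrb1 and Ackr2 (Lyve1), and Cltc and Cd209b (Marco).

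Of 75 other genes of these pathways, 54 had 100 UMIs in MO/MP-like cells, and 8 were higher and 4 lower in dKO by 1.5-fold. These are 14.8% and 7.41% of the 54, beside 4.47% and 4.45% of all 9111 genes. The lists were chosen with earlier results of these data known, so these shares are a description only. By a 2-fold rule none of these genes was higher and only haptoglobin (Hp) was lower. Among 10 other scavenger receptors, Cd36, which takes up oxidized lipoproteins and fatty acids, was lower (841 and 510 CPM, log2 ratio −0.72) and the rest were within 1.5-fold. Among 17 other C-type lectin receptors, Clec2d (log2 ratio 0.95), Clec4a1 (0.82), Clec4e (0.76), a receptor for mycobacterial glycolipid and dead cells, and Cd209g were higher and Cd209d was lower. Of 8 other uptake receptors, Siglec1, which binds sialic acid (15.9 and 30.8 CPM), and the high-affinity IgG receptor Fcgr1 (172 and 320 CPM) were higher. The median log2 ratio was −0.11 for the scavenger receptors, 0.28 for the lectins and 0.06 for the uptake receptors. The list genes were not weighted by subset. Cd36 was among the leading genes of the Spp1+ Gpnmb+ cluster, which held 22.7% of MO/MP-like UMIs in Ctrl and 16.4% in dKO. Clec4e and Hp were among those of the monocyte-like cluster, which held 11.5% and 14.9%.

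Among 8 genes of haemoglobin and haem handling, haptoglobin (Hp) was at 57.0 and 24.2 CPM, a log2 ratio of −1.24, and the iron exporter Slc40a1 at 7.57 and 3.90 CPM, a log2 ratio of −0.96. Of 11 regulators and signal receptors, Il4ra (72.8 and 113 CPM) and Irf4 (10.8 and 16.7 CPM) were higher, and Maf, which encodes a transcription factor of macrophages, had a log2 ratio of 0.15. The median log2 ratio was −0.14 for the haem list. In the resident subset, Fcgr1 (177 and 273 CPM), Clec4d (58.3 and 125 CPM) and haem oxygenase Hmox1 (1308 and 2295 CPM) were higher, and Cd209d (109 and 47.7 CPM) and the endocytic receptor Lrp1 (189 and 109 CPM) were lower. These are 7.5% and 5.0% of the 40 list genes with 100 UMIs there, near the 6.1% and 4.18% of all 2919 genes. Without the Dcn-led cells the log2 ratio of Lrp1 was −0.37 (−0.79 to 0.04), no longer past 1.5-fold, and those of Fcgr1, Clec4d, Hmox1 and Cd209d were 0.60, 1.46, 0.68 and −1.47. Mrc2, the paralogue of Mrc1, was held by FAP-like cells, with 84.0% of its UMIs in Ctrl.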

How the data were processed

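Single-cell RNA-seq of 2 libraries, 1 per group, was analysed. The authors deposited counts of UMIs per gene and cell, not normalized. The submitters' processing notes name the mm10 build, Seurat 4.3.0 and, for counting, Cell Ranger 7.0.0, whereas the matrix headers name another Cell Ranger release.

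Cells with at least 500 genes were kept. Scrublet (scanpy 1.11.5) called 4 Ctrl and 14 dKO cells, under 0.5% of each library, so its own threshold was not used, and cells in the top 7.5% of its scores in each library were left out instead (325 and 250). Cells were integrated and clustered in Seurat 5.3.0 (R 4.3.3; 2000 variable genes, 40 dimensions, resolution 0.8) and MO/MP-like cells sub-clustered (30 dimensions, resolution 0.4), both without the 85 receptor and list genes. Clusters were named by at least 3 enriched markers.

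Counts were summed per class and library, with exact Poisson (levels), Clopper-Pearson (shares) and conditional binomial (ratios) intervals at 95%. Thinning to 2000 UMIs left out 150 Ctrl and 115 dKO MO/MP-like cells. Genes named are the 10 receptors, up to 5 genes per list and direction past 1.5-fold with 100 UMIs in MO/MP-like cells, 5 paralogues and the 3 genes most like each receptor. Maf and the resident subset's list genes were added after their values were seen. The receptors and lists were chosen with earlier results of these data known. Gene positions are from GENCODE. Ratio intervals were tried on simulated Poisson counts only. Those lack the gathering of UMIs in single cells, so coverage in these data was not tested. Alternatives were no doublet removal, clustering with all variable genes or without integration, a filter of 200 genes, resolutions of 0.2 and 0.8, median scaling, per-cell means, leaving out the top cell, a minimum of 20 UMIs and a 2-fold limit. Weighting subsets by their Ctrl share and leaving out the Dcn-led cells were added after seeing the data.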

Additional observations from a re-analysis of the deposited data

Results flagged for a closer look

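For 4 receptors the ratio between the libraries pointed in opposite directions in different sub-clusters, with over 3 UMIs in each library and counting intervals that left out 0 on both sides. The difference between sub-clusters was not tested, since each group had 1 library. Lyve1 had a log2 ratio (dKO over Ctrl) of 1.02 in the resident subset and −1.59 in the Calhm6-led C1q-high cluster, where 65.4% of the Ctrl UMIs were in 1 cell. Cd163 had −0.35 in the resident subset and 1.99 in the Arl5c-led C1q-high cluster, from 4 and 11 UMIs. Mrc1 had 1.16 in cycling cells, with 35.8% of the dKO UMIs in 1 cell, and −0.37 in monocyte-like cells. Folr2 had 0.33 in the Arl5c-led and −1.09 in the Dcstamp-led cluster, where the top cell held 20.7% of the Ctrl and 25.0% of the dKO UMIs.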

How the results depend on the processing

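In MO/MP-like cells, Stab1 (log2 ratio −0.94 to −0.90), Marco (−2.46 to −1.71), Msr1 (−0.36 to −0.28), Folr2 (−0.17 to −0.12) and Lyve1 (0.68 to 1.37) kept their direction under all 8 alternatives. Cd163 reversed to −0.38 and Cd209f to −0.020 with the mean of each cell's own CPM, and Cd209f to −0.13 with subsets at their Ctrl weights. The summed log2 ratio moved to −0.13 with the mean of each cell's own CPM. In the resident subset it moved from −0.07 to −0.32 both without doublet removal and with a filter of 200 genes, −0.28 at a resolution of 0.8 and −0.29 without the Dcn-led cells. Marco there turned to 0.83 without the top cell of each library, which left few UMIs, so its direction there is not settled. Mrc1 there had a range of −0.25 to 0.18 and kept its sign under 4 of 9 alternatives. Cd163 (−1.12 to −0.35) kept its direction under all 9, and Cd209f (−0.75 to 0.03) and Clec10a (−0.72 to 0.01) under 8 of 9, each lowest without integration. Msr1 there turned to −0.27 without integration and Timd4 to −0.11 with the mean of each cell's own CPM, each under 1 of 9. The cause was not tested. With a 2-fold limit, 0 of the 54 other list genes were higher and 1 lower, and 1 receptor, Lyve1, was higher and 1, Marco, lower. Of all genes, 1.3% were higher and 1.5% lower by that limit. The resident share of MO/MP-like cells was 1.2 percentage points higher in dKO (−1.7 to 4.1) and 1.07 points (−1.87 to 4.06) when clustered with all variable genes. The difference was 3.7 points (1.23 to 6.23) without doublet removal, 3.91 (1.49 to 6.38) with a filter of 200 genes, 3.03 (0.50 to 5.62) at a resolution of 0.8 and 2.2 (0.85 to 3.66, 33 and 51 cells) without integration, all 4 with counting intervals above 0. No resident subset was named at a resolution of 0.2, so it gave no value. No paired analysis was possible because each group had 1 library.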
